A study of Mus musculus with 8 samples.

Results

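Low islands are the CpG island regions of the mouse autosomes that bound least to an antibody against 5-methylcytidine on nearly every array of the series. They were chosen by rank: regions of at least 3 probes, with probe starts up to 500 bp apart, whose mean log2 ratio of bound over input lay in the lowest 25% of regions on at least 7 of the 8 arrays. The rule named 1099 of 13444 regions, 8.17% of all, and they hold 7196 of 83154 probes. Of these, 503 (3.74% of all regions) were low on all 8 arrays and 596 on exactly 7. The measured ratios of all 8 arrays chose the low islands, so their low values are a description and were not tested.

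The study asked about a demethylation pathway at CpG islands. It used methylated DNA immunoprecipitation (mDIP), in which sheared, denatured DNA is precipitated with the antibody and hybridised, in Cy5, beside the unprecipitated input in Cy3. Each of 8 groups had 1 array: aid-/- embryonic stem (ES) cells, mbd4-/- ES cells, ES cells with a knockdown of Gadd45a, wild-type ES cells, aid-/- liver, mbd4-/- liver, aid-/- spleen and mbd4-/- spleen. Liver and spleen came from C57BL6/J mice aged 6 months, as DNA given by other laboratories, and tissue of wild-type mice was not analysed here. The labels give neither a strain nor a clone number for the ES cells. Nor do they give an agent for the knockdown or a number of animals. Mbd4 encodes a DNA glycosylase with a methyl-CpG-binding domain and Gadd45a a DNA damage response protein.

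A CpG island is a stretch of DNA with many CpG dinucleotides, and most mammalian islands lie at gene promoters. Methyl groups sit on the cytosine of CpG across most of the genome, while islands at active and at poised promoters are mostly free of them. Islands of germline genes, imprinted genes and the inactive X chromosome are well-known exceptions. The antibody needs methylated CpG to bind, so a region can be low because its CpG carry no methyl group or because it has few CpG.

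The probe nearest the middle of the 3 lowest gene-named islands is shown beside that of 2 regions that bound most on the 8 arrays, to show that both kinds hold CpG. Capitals mark CpG, positions are in build mm9, and no file gives the strand of the probes.
Tmem106b probe, chr6:13019785-13019829: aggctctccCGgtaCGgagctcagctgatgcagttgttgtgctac
Mrpl24 probe, chr3:87723516-87723571: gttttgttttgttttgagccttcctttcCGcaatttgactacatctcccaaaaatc
Rabif probe, chr1:136391115-136391159: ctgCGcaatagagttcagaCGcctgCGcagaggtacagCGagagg
Trpc7 probe, chr13:56989171-56989218: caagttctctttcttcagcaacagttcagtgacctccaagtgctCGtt
Map3k4 probe, chr17:12464717-12464771: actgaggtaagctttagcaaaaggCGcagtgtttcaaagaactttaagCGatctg

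The low probes held 2, 1 and 4 CpG for Tmem106b, Mrpl24 and Rabif, and the high probes 1 for Trpc7 and 2 for Map3k4. The Rabif probe had a log2 ratio of −2.72 in ES aid-/-, −1.47 in ES mbd4-/-, −1.34 in the Gadd45a knockdown, −2.31 in ES wild type, −0.68 in aid-/- and −1.62 in mbd4-/- liver, and −1.38 in aid-/- and −1.41 in mbd4-/- spleen. The Map3k4 probe had 5.44, 5.10, 5.38 and 4.35 on the ES arrays in the same order, 2.69 in aid-/- and 4.64 in mbd4-/- liver, and 2.75 in aid-/- and 3.74 in mbd4-/- spleen. These ratios, like all below, are relative to the median of autosomal probes on the same array, so 0 is a middling probe and not an unmethylated one.

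Promoters of 4 of the 12 lowest islands are shown as examples of the motifs counted further on, picked after their letters were seen. Of the 12 islands 10 had at least 1 probe lying whole in a promoter of their gene. RefSeq sequences of build GRCm38.p6 give 250 bases before and 50 after the gene start, on the gene's strand, and capitals mark the motifs named further on.
Mcm5 promoter, chr8:75109259-75109558, plus strand: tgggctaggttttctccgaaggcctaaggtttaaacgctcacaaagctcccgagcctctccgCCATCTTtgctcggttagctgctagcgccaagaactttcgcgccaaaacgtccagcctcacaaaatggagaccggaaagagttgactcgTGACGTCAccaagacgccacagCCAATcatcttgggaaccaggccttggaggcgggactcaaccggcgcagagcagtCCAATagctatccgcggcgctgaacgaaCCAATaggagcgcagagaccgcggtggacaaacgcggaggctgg
Kif18a promoter, chr2:109280488-109280787, plus strand: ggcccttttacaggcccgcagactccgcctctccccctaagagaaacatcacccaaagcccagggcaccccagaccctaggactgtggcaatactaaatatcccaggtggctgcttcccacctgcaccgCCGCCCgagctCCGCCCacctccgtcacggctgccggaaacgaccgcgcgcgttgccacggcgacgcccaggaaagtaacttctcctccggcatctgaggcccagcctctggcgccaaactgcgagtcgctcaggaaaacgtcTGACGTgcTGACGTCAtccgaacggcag
Rabif promoter, chr1:134494389-134494688, plus strand: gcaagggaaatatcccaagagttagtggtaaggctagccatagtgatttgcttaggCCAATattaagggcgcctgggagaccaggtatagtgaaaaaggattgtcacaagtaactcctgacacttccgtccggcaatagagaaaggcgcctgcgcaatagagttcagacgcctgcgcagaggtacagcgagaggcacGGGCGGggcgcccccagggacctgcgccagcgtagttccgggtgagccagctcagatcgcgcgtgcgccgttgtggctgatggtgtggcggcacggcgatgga
Gm3417 promoter, chr17:14978763-14979062, minus strand: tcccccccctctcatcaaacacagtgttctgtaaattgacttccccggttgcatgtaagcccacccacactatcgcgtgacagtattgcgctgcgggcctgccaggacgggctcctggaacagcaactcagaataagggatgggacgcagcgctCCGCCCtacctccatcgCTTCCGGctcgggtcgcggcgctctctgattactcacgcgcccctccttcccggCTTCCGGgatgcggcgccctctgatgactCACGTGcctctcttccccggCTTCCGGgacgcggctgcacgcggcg

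Of the 5 probes of the Mcm5 island 1 lay whole in this window, of the 6 of Kif18a 1, of the 4 of Rabif 2 and of the 5 of Gm3417 3. The windows held 25, 26, 22 and 29 CpG, against a median of 22 over promoters of other regions and 7 over all 31396 autosomal promoters in the table. Promoters of the other lowest islands ran from 2 CpG (Ccdc58) through 12 (Mrpl24), 15 (Alg14) and 17 (Tmem106b) to 33 (Ubb). No probe of the Ccdc58 island lay whole in its promoter, so that window is not shown to be part of the island.

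The median of the low islands differed between arrays. The median log2 ratio of the 1099 was −0.98 in ES aid-/-, −1.22 in ES mbd4-/-, −0.92 in the Gadd45a knockdown and −1.06 in ES wild type. It was −0.45 in aid-/- liver and −0.80 in mbd4-/- liver, and −0.73 in aid-/- spleen and −0.68 in mbd4-/- spleen. The medians of the other 12345 regions lay between −0.07 and 0.07 on every array. The upper end of the lowest 25% lay between −0.70 (ES mbd4-/-) and −0.24 (aid-/- liver). The arrays also differed at the top: the 98th percentile of all regions ran from 2.23 in aid-/- liver to 4.36 in ES aid-/-.

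**Figure D1:**
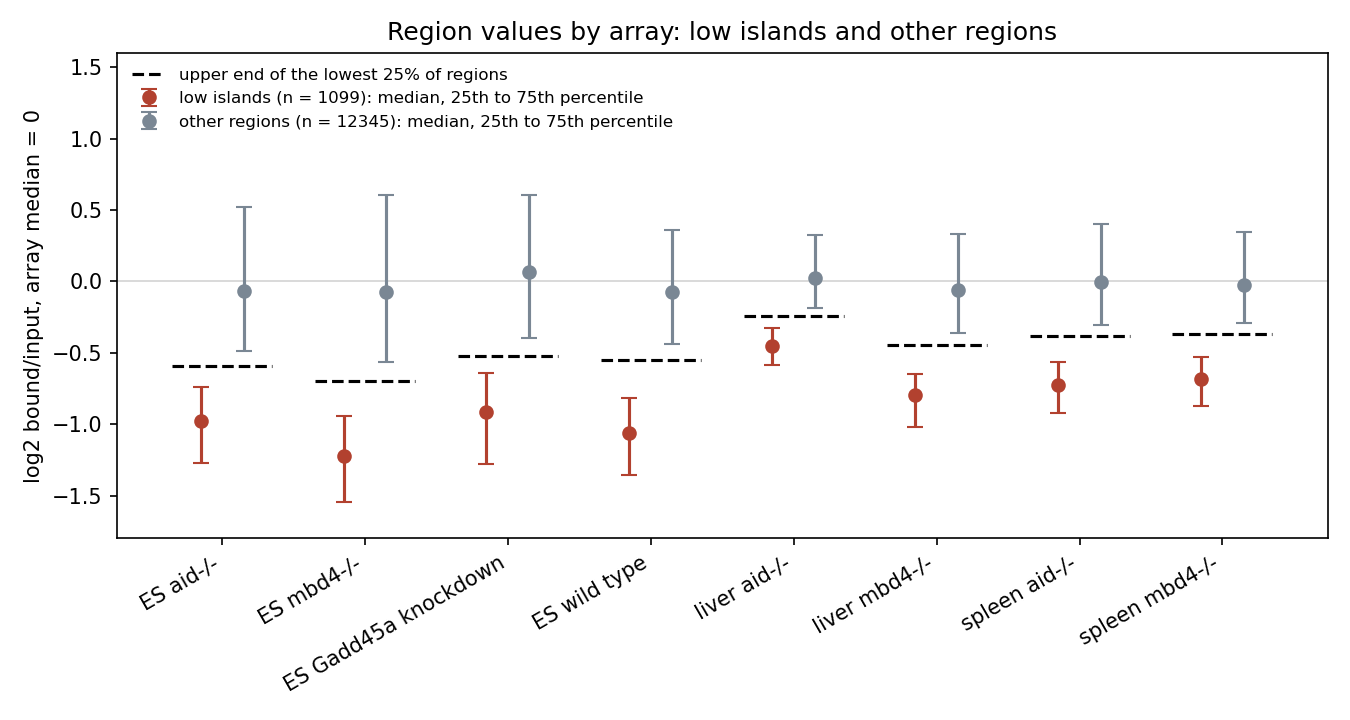
Median log2 bound/input of the low islands (red) and of the other regions (grey) on each of the 8 arrays, with bars from the 25th to the 75th percentile over regions and the rank threshold as a dashed line. The low islands' medians sit between −1.22 and −0.45, each under its array's threshold because the threshold chose them.

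Most regions low on 7 arrays were low on the remaining array too. Regions low on all of 7 arrays were read on the remaining one, where 25% of all regions are low by construction. Of 652 such regions 77.1% were low on the ES aid-/- array. The share was 89.3% of 563 in ES mbd4-/-, 75.9% of 663 in the Gadd45a knockdown and 95.6% of 526 in ES wild type. In the tissues it was 82.6% of 609 for aid-/- liver, 96.0% of 524 for mbd4-/- liver, 92.3% of 545 for aid-/- spleen and 93.5% of 538 for mbd4-/- spleen. The ES aid-/- and Gadd45a knockdown arrays had the lowest shares. The low ones are each time the same 503 regions low on all 8 arrays, so the shares restate how many low islands missed each array. The arrays share their probes, so the 25% is no expectation for these regions.

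Low islands that escaped the rule on 1 array were of unlike base composition on different arrays. On the ES aid-/- array 149 of them were not low, and their probes had a median GC content of 50.9%. On the Gadd45a knockdown array 160 were not low, with a median of 55.6%, against 53.6% over all low islands. Across all regions the log2 ratio correlated with probe GC at r = −0.18 in ES aid-/- and 0.25 in the knockdown, as a description over 13444 regions that share their array. The ES mbd4-/- and knockdown arrays were read with an older version of the scanner software than the other 6, and each was scanned on a day of its own. The part of these differences in the result was not tested.

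Much of the bound signal of the low islands was dim. On the ES aid-/- array 41.2% of their probes had a bound signal that the scanner marks as well above background, against 67.6% of the probes of other regions. The shares were 59.5% against 83.0% in ES mbd4-/-, 70.2% against 85.8% in the Gadd45a knockdown and 80.9% against 92.2% in ES wild type. They were 74.2% against 84.4% in aid-/- liver, 84.8% against 93.1% in mbd4-/- liver, 68.2% against 83.4% in aid-/- spleen and 81.2% against 91.2% in mbd4-/- spleen. The share was lower in low islands on all 8 arrays. Since the bound signal is the numerator of the ratio that chose them, this is part of the choice.

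The input channel did not show the same gap. Input was well above background for 94.9% to 99.9% of the probes of low islands and for 94.2% to 99.8% of the others. Relative to the array median, the log2 bound signal of low islands had medians of −1.28 to −0.92 over the 8 arrays and the log2 input signal −0.59 to −0.09. Other regions had input medians of −0.35 to 0.02. Input was thus also lower in the low islands on every array, by less than the bound signal.

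Of the 1099 low islands 1020 (92.8%) had at least 1 bound probe above background on every array, against 98.7% of the other regions, and 2 had all of their bound probes above it on every array. On the ES aid-/- array 75 low islands had none, where the ratio is only an upper bound of the binding. On the other 7 arrays between 2 and 14 had none.

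**Figure D2:**
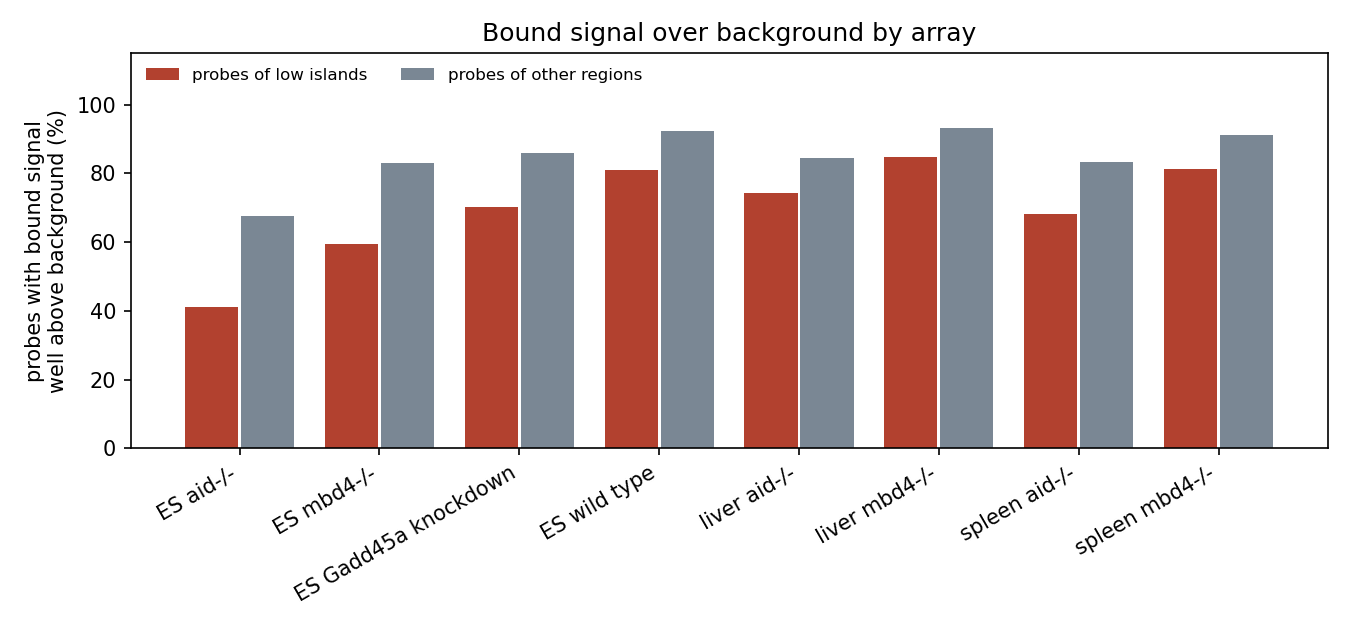
Share of probes whose bound (Cy5) signal was well above background, in percent, for probes of low islands (red) and of other regions (grey) on each of the 8 arrays. The ES aid-/- array has the lowest bars, 41.2% and 67.6%.

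The 12 lowest gene-named islands, by mean percentile over the 8 arrays, carry Tmem106b (a lysosomal membrane protein), Mrpl24 (a mitochondrial ribosomal protein), Rabif (a Rab-binding chaperone), Snord96a (a small nucleolar RNA), Ccdc58, Kif18a (a mitotic kinesin), Smcr7 (now Mief2, a mitochondrial fission receptor), Gm3417, Ubb (a polyubiquitin gene), Alg14 (an enzyme subunit of N-glycan synthesis), Mcm5 (a subunit of the replicative helicase) and Aftph (a clathrin adaptor partner). Each was low on all 8 arrays.

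The Tmem106b island (chr6:13019691-13020168, 3 probes) had −1.92 in ES aid-/-, −1.88 in ES mbd4-/-, −2.07 in the Gadd45a knockdown and −1.75 in ES wild type. Its tissue values were −0.94 in aid-/- and −2.07 in mbd4-/- liver and −2.03 in aid-/- and −1.58 in mbd4-/- spleen. The aid-/- liver value was the highest, on the array with the narrowest range. No bound probe was above background in ES aid-/-, so that value is a bound.

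The Mrpl24 island (chr3:87723261-87723780, 5 probes) had −1.56 in ES aid-/-, −2.04 in ES mbd4-/-, −1.65 in the knockdown and −2.48 in ES wild type, with SDs over probes of 1.41, 0.61, 0.61 and 0.65. It had −0.79 in aid-/- and −1.94 in mbd4-/- liver and −1.06 in aid-/- and −1.67 in mbd4-/- spleen. Its own middle probe, printed above, read 0.30 in ES aid-/-, where no bound probe of the island was above background.

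The Ubb island (chr11:62364305-62365335) was the longest of the 12, with 9 probes, 5 of them in promoters of the gene. It had −1.31 in ES aid-/-, −1.73 in ES mbd4-/-, −1.54 in the knockdown and −2.29 in ES wild type, −0.87 in aid-/- and −1.40 in mbd4-/- liver, and −1.42 in both spleens. Of its 72 bound measurements 52 were above background, and every array had some. The Gm3417 island (chr17:15115516-15116013, 5 probes) was the best measured of the 12, with 38 of 40 bound measurements above background. It had −1.84, −2.31, −2.36 and −1.52 on the ES arrays in the order above, −0.71 in aid-/- and −1.08 in mbd4-/- liver, and −1.13 in aid-/- and −0.99 in mbd4-/- spleen. Alg14 had the fewest arrays measured among the 12, with no bound probe above background in ES aid-/- or ES mbd4-/-.

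**Figure D3:**
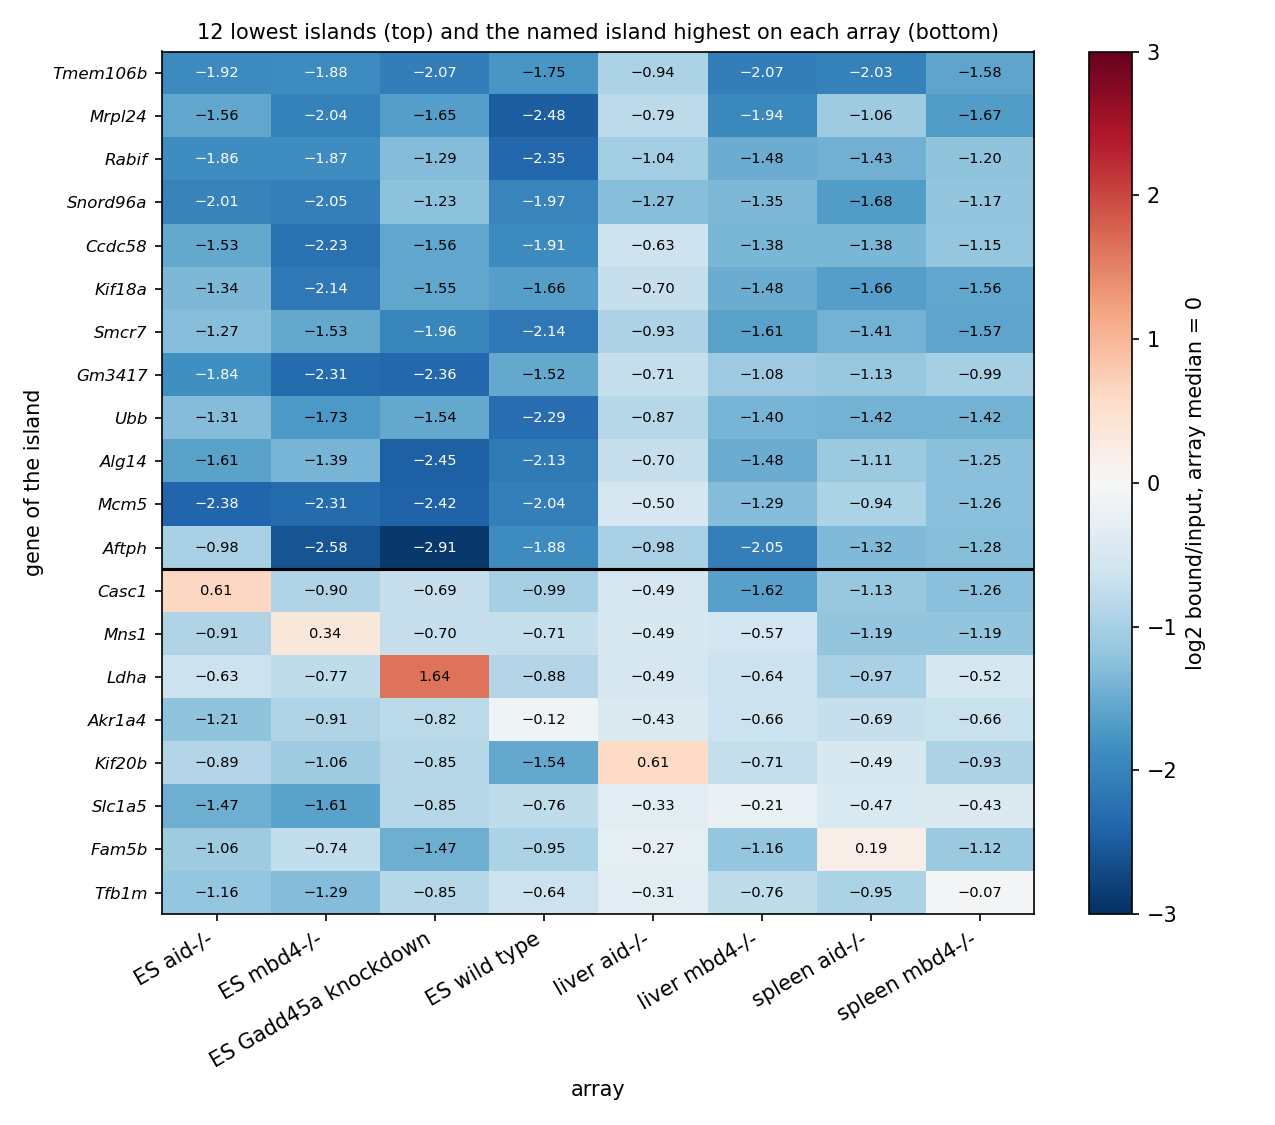
Log2 bound/input (colour and number; array median 0) of the 12 gene-named islands with the lowest mean percentile and, under the line, of the gene-named low island that ranked highest on each array, for the 8 arrays. The upper rows lie between −2.91 (Aftph, Gadd45a knockdown) and −0.50 (Mcm5, aid-/- liver), and the highest cell of the lower rows is 1.64 (Ldha, Gadd45a knockdown).

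The islands that stood out on 1 array were taken by rank on that array. Ldha, which encodes a lactate dehydrogenase subunit, had 1.64 in the Gadd45a knockdown, with all 6 bound probes above background, against −0.88 in ES wild type. On the other 6 arrays it had −0.97 to −0.49. Casc1 had 0.61 in ES aid-/-, where 0 of its 3 bound probes were above background, against −0.99 in ES wild type, where 2 were, so the 0.61 rests on background signal. Kif20b, a kinesin of cytokinesis, had 0.61 in aid-/- liver, with 3 of 5 bound probes above background, against −0.71 in mbd4-/- liver. A single array a group gives no error to set these values against.

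The others were lower. Mns1 had 0.34 in ES mbd4-/- (−0.71 in ES wild type), and Fam5b 0.19 in aid-/- spleen (−1.12 in mbd4-/- spleen). The highest on the other arrays stayed below 0: Akr1a4 had −0.12 in ES wild type, Slc1a5, a glutamine transporter, −0.21 in mbd4-/- liver, and Tfb1m, a mitochondrial rRNA methylase, −0.07 in mbd4-/- spleen.

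At the edge of the rule the order was tight. Meis1, Snord2 and Hps3 were just inside, with a second-highest percentile of 24.98, 24.99 and 25. Naca, Gsg2 and Stil were just outside, with 25.01, 25.04 and 25.04. A further 628 regions were low on 6 arrays.

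Pairs of arrays were compared with a rule: the region means differ by 1 or more in log2, and 75% or more of the probes differ the same way. The rule that chose the low islands used these same contrasts, so the counts are given with the share of all regions and nothing is read from them. The 3 comparisons in ES cells share the wild-type array. In ES aid-/- 53 low islands (4.82% of them) were higher than in ES wild type, against 8.81% of all regions, and 19 (1.73%) lower, against 2.19%. In ES mbd4-/- 10 (0.910%) were higher, against 8.67%, and 42 (3.82%) lower, against 2.67%. In the Gadd45a knockdown 48 (4.37%) were higher, against 6.58%, and 16 (1.46%) lower, against 6.46%. In liver 40 (3.64%) were higher in aid-/- than in mbd4-/-, against 1.91%, and 0 lower, against 8.22%. In spleen 6 (0.546%) were higher, against 0.677%, and 0 lower, against 5.98%.

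The largest differences in ES aid-/- fell on histone genes whose bound probes were dim on both arrays. Hist1h2bc had 0.12 in ES aid-/- against −2.36 in ES wild type, with 0 of 3 bound probes above background on either array. Hist1h1b had −0.25 against −2.59, likewise with 0 on either. Lmx1b, a homeobox gene of limb and kidney, was among the 3 largest in both tissues: 0.16 in aid-/- liver against −1.43 in mbd4-/- liver, and −0.41 in aid-/- spleen against −1.71 in mbd4-/- spleen. These genes were picked by the size of the difference.

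All 4 tissue arrays were low for 895 of the low islands (81.4%) and all 4 ES arrays for 707 (64.3%). Of all regions 9.13% and 6.98% were, in the same order, and the rule itself raises both shares. A low island misses the threshold on at most 1 array, so both counts restate the misses by array. The largest numbers of misses were 160 on the Gadd45a knockdown array and 149 on the ES aid-/- array. Within the low islands the arrays correlated weakly, at r = −0.06 to 0.67 with a median of 0.24 over the pairs, as a description of 1099 regions cut to a narrow range. Over all regions the pairs had 0.52 to 0.93.

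The gene lists below were compiled with earlier results of these data known, and the share of low islands in a list is set beside the 8.17% of all regions, with no test. Genes for gene expression and energy supply made up 7.37% of the low islands, and their regions were low islands more often than all regions. Of 398 regions at genes of the ribosomes, the respiratory chain, the proteasome, translation and splicing, 81 (20.4%) were low islands. Their median mean percentile was 32.7, against 48.6 for all regions. By list, the share was 22.4% for respiratory chain subunits (13 of 58), 21.7% for mitochondrial ribosomal proteins (13 of 60), 23.0% for splicing and RNA-binding factors (31 of 135), 17.5% for translation factors (10 of 57), 16.7% for the proteasome (6 of 36) and 15.4% for cytosolic ribosomal proteins (8 of 52). The exact binomial intervals of the proteasome (6.37% to 32.8%) and cytosolic ribosomal lists (6.88% to 28.1%) hold the share of all regions.

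The respiratory chain islands came from complex I, the cytochrome bc1 complex, cytochrome c oxidase and ATP synthase. Cox6b1, a subunit of cytochrome c oxidase (chr7:31410902-31411368), was the lowest of them, with −1.56 in ES aid-/-, −1.57 in ES mbd4-/-, −2.01 in the knockdown, −1.71 in ES wild type, −0.59 in aid-/- and −1.19 in mbd4-/- liver, and −0.56 in aid-/- and −0.69 in mbd4-/- spleen. Ndufa10 of complex I, Uqcrc2 and Uqcrfs1 of the cytochrome bc1 complex, and Atp5g3 and Atp5a1 of ATP synthase were also low islands. Genes named here beyond the lowest of each list were picked after their values were seen.

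Splicing genes gave the largest number of low islands of any list. Srsf3, a serine-arginine splicing factor (chr17:29168998-29169338), had −1.64 in ES aid-/-, −1.12 in ES mbd4-/-, −1.20 in the knockdown, −1.02 in ES wild type, −0.81 in aid-/- and −0.87 in mbd4-/- liver, and −1.23 in aid-/- and −1.14 in mbd4-/- spleen. Srsf1, Srsf2, Srsf4 and Srsf7 were low islands too. Of 28 regions at helicase genes named Ddx, 8 (28.6%) were low islands. Among cytosolic ribosomal genes Rps25 was the lowest, with −1.54, −1.59, −0.98 and −1.40 on the ES arrays in the order above. In tissues Rps25 had −0.28 in aid-/- and −1.17 in mbd4-/- liver and −1.08 in aid-/- and −0.87 in mbd4-/- spleen.

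Further lists lay above the share of all regions. Chaperones had 13 of 67 (19.4%), with the endoplasmic reticulum co-chaperone Dnajb11 lowest, and Hspa5, Hspa9 and the chaperonin subunits Cct3, Cct4 and Cct8 beside it. Replication and cell cycle genes had 16 of 99 (16.2%). Mcm5 and Mcm6 of the helicase, Pcna, Orc3, Orc6, Cdk4, Ccnd1 and Ccnd2 were among them. The microRNA list had 10 of 74 (13.5%, exact binomial interval 6.68% to 23.5%, which holds the share of all regions), with Mir1940 lowest, and is named as the array design names these islands.

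Other lists were close to the background. Vesicle transport genes had 15 of 137 (10.95%), RNA polymerase and basal transcription genes 8 of 76 (10.5%), ubiquitin enzymes 14 of 151 (9.27%), solute carriers 19 of 222 (8.56%), Zfp zinc fingers 22 of 262 (8.40%) and genes named Tmem 11 of 136 (8.09%). The lowest of each were Trappc5, Gtf2e2, Usp5, Slc35e1, Zfp266 and Tmem106b. Usp5, a ubiquitin protease that disassembles free ubiquitin chains, had −2.39, −2.40, −1.89 and −2.01 on the ES arrays in the order above, −0.72 in aid-/- and −1.17 in mbd4-/- liver, and −1.25 in aid-/- and −0.63 in mbd4-/- spleen.

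Replication-dependent histone genes had the highest share of any list, 9 of 24 (37.5%), and their values were the least certain. Their regions had a median GC of 41.9% and 2.91 CpG per 100 bases, and 3 of the 9 low islands had a bound probe above background on every array. Hist1h3g (chr13:23627035-23627772) was the lowest, with 12 of 32 bound measurements above background and none in ES aid-/- or ES mbd4-/-. Histone genes have near-identical copies, and which copies a probe binds was not tested. With normexp background correction, which covers all regions, none of them was a low island. The deposited value table named none of them either, but it covers only 37.6% of the low islands. Whether it covers the histone regions was not tested, so their absence there does not show that they were not low.

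Genes of development were rare among the low islands. Of 554 regions at Hox, other homeobox, forkhead, Sox, Pax, Gata, T-box and basic helix-loop-helix genes, 21 (3.79%) were low islands. Their median mean percentile was 50.4, near the 48.6 of all regions, and 42.1% were low on no array, against 42.7% of all regions. Their middle rank was thus that of all regions, with fewer of them low on nearly all arrays. By list, the exact binomial intervals reach 10.5% (Hox), 11.7% (forkhead), 10.6% (Sox, Pax, Gata and T-box) and 11.7% (basic helix-loop-helix). These hold the share of all regions, and that of the other homeobox genes, up to 6.86%, does not. Ranked on the bound signal alone, without input, the share of the developmental group turned to above that of all regions, 16.4% against 14.97%.

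The exceptions among them were of several families. Dlx4, a distal-less homeobox gene (chr11:95006289-95007686, 12 probes), had −0.98 in ES aid-/-, −1.98 in ES mbd4-/-, −1.64 in the knockdown, −1.31 in ES wild type, −0.46 in aid-/- and −1.29 in mbd4-/- liver, and −0.90 in aid-/- and −0.88 in mbd4-/- spleen. Sox4 had −1.51, −2.58, −1.19 and −0.73 on the ES arrays in the same order, −0.70 in aid-/- and −1.10 in mbd4-/- liver, and −1.19 in aid-/- and −0.76 in mbd4-/- spleen. Hoxa11, Foxn2 and Atoh8 were the lowest of the Hox, forkhead and basic helix-loop-helix genes, each low on all 8 arrays. Of 66 Hox regions 2 were low islands, Hoxa11 and Hoxc10.

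Low islands were also few at genes of neurons. Of 209 regions at neuronal channel and receptor genes 1 was a low island (0.478%), at Kcna1, a voltage-gated potassium channel. Of 52 at Wnt and Frizzled genes 1 was, at Fzd3, and of 28 at protocadherins 1 (3.57%), at Pcdh8. The exact binomial intervals of these 2 lists reach 10.3% and 18.3% and hold the share of all regions. Among the 72 gene-name stems with at least 20 regions, 12 had no low island: Arhgef, Cacna, Cdc, Cdh, Il, Lhx, Nkx, Pax, Prdm, Snx, Unc and Wnt. These had 20 to 43 regions each, and whether so few regions set a stem apart from the 8.17% of all regions was not tested.

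Gene classes known for methylated islands gave almost none. No region of 25 at germline and piRNA genes was a low island, with an upper limit of 13.7% from the exact binomial interval, which covers counting error only. Their median mean percentile was 95.3. Of 50 regions at imprinted genes 1 was a low island, at Tssc4, with an upper limit of 10.6%, and their median mean percentile was 76.4. Both upper limits lie above the share of all regions.

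Genes of the DNA methylation and repair machinery had 6 of 36 (16.7%): Mbd2, Smug1, Apex1, Gadd45a, Mbd3 and Dnmt3b. The exact binomial interval of this share, 6.37% to 32.8%, holds the 8.17% of all regions. Mbd2, a reader of methylated CpG, was the lowest, with −1.44 in ES aid-/-, −1.59 in ES mbd4-/-, −0.64 in the knockdown, −1.18 in ES wild type, −0.97 in aid-/- and −1.37 in mbd4-/- liver, and −1.13 in aid-/- and −1.39 in mbd4-/- spleen. The island of Gadd45a (chr6:66986497-66987387, 7 probes), the gene knocked down in 1 group, had −0.52 in the knockdown and −0.63 in ES wild type. It had −1.40 in ES aid-/-, −1.50 in ES mbd4-/-, −0.64 in aid-/- and −0.71 in mbd4-/- liver, and −0.95 in aid-/- and −0.53 in mbd4-/- spleen. The knockdown array was the one on which it missed the rank threshold, narrowly, with −0.519 against −0.524. A knockdown acts on RNA, so a DNA array does not check it.

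Lists of the labelled tissues and cells held 1 low island each, in few regions: 10% of the liver list, 2.86% of the blood list and 3.85% of the pluripotency list, against 8.17% of all regions. Cebpa, a liver and myeloid regulator (1 of 10 regions on the liver list), had a low island of 21 probes. Bcl11b, a T cell regulator (1 of 35 on the blood list), was low on all arrays but that of aid-/- spleen, where it had 0.12, against −0.77 in mbd4-/- spleen. Nr5a2 was the 1 of 26 regions on the pluripotency list.

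**Figure D4:**
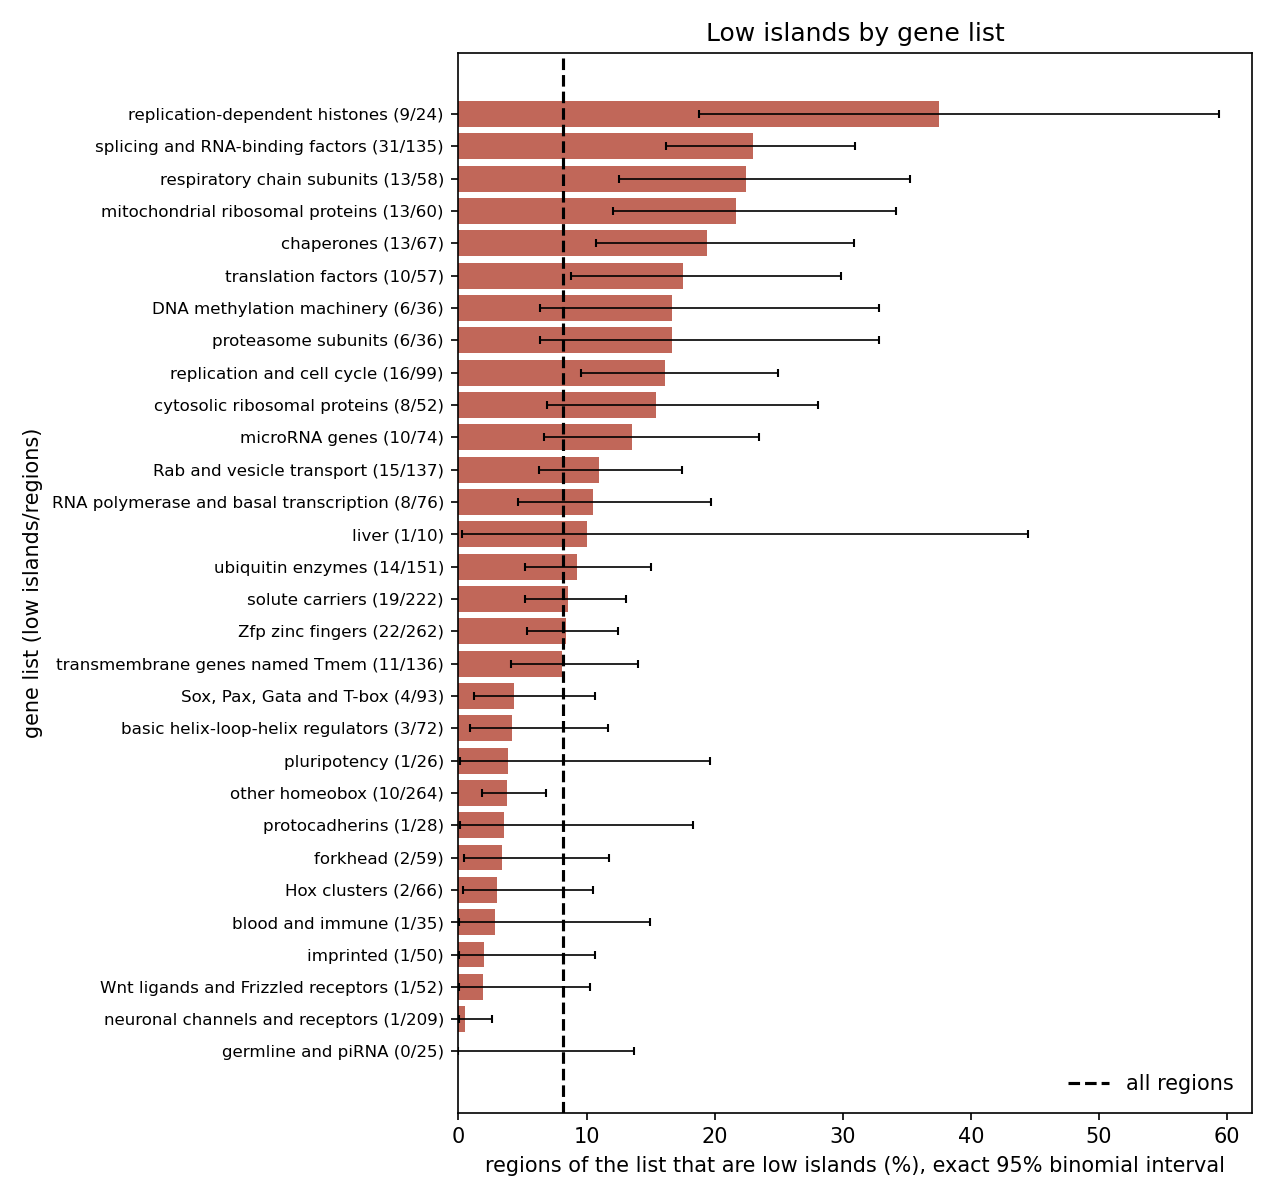
Share of the regions of each of 30 gene lists that were low islands, in percent, with exact 95% binomial intervals that cover counting error only and the share of all regions (8.17%) as a dashed line. Histone, splicing and energy lists lie at the top, neuronal channels (0.478%) and germline genes (0 of 25) at the bottom.

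Low islands lay at promoters more often than other regions. Of 836 whose gene has a promoter in the table, 714 (85.4%) had a probe lying whole in it, against 64.3% of 9111 other regions. Split in this way, 10.86% of 6573 regions with such a probe were low islands, and 3.62% of 3374 without one. Among regions with such a probe the share was 21.8% for the gene expression and energy group (64 of 294) and 3.17% for the developmental group (4 of 126). Among those without it was 16.7% (6 of 36) and 2.67% (7 of 262). The distance between the groups was thus present on both sides of the split, which was chosen after the lists had been counted.

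The probes of the low islands were poorer in GC and slightly richer in CpG. Their median GC was 53.6% (interquartile range 51.1% to 55.8%), against 56.0% (53.0% to 58.7%) for other regions. Their median CpG number was 5.50 per 100 bases against 5.20. They had a median of 6 probes over 715 bp, against 5 probes over 639 bp. The sign of the GC difference, −2.42 percentage points, turned to 0.64 with normexp background correction and to 1.32 in the deposited value table. The deposited table covers only a part of the probes, and the part of this choice in its sign was not tested.

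By GC, 15.02% of regions at 45 to 50% were low islands, 12.6% at 50 to 55%, 5.67% at 55 to 60% and 1.89% at 60 to 65%. None of 158 regions with 65% or more was one. By CpG the share was highest between 4 and 8 per 100 bases (8.87% and 9.44%) and lower at both ends. At equal GC the gene groups kept their order. The gene expression and energy group had 25%, 20.7%, 19.12% and 12% in the 4 bins from 45 to 65%, and the developmental group 7.32%, 6.37%, 1.01% and 0%. The shares by chromosome ran from 5.64% on chromosome 15 to 10.2% on chromosome 19.

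**Figure D5:**
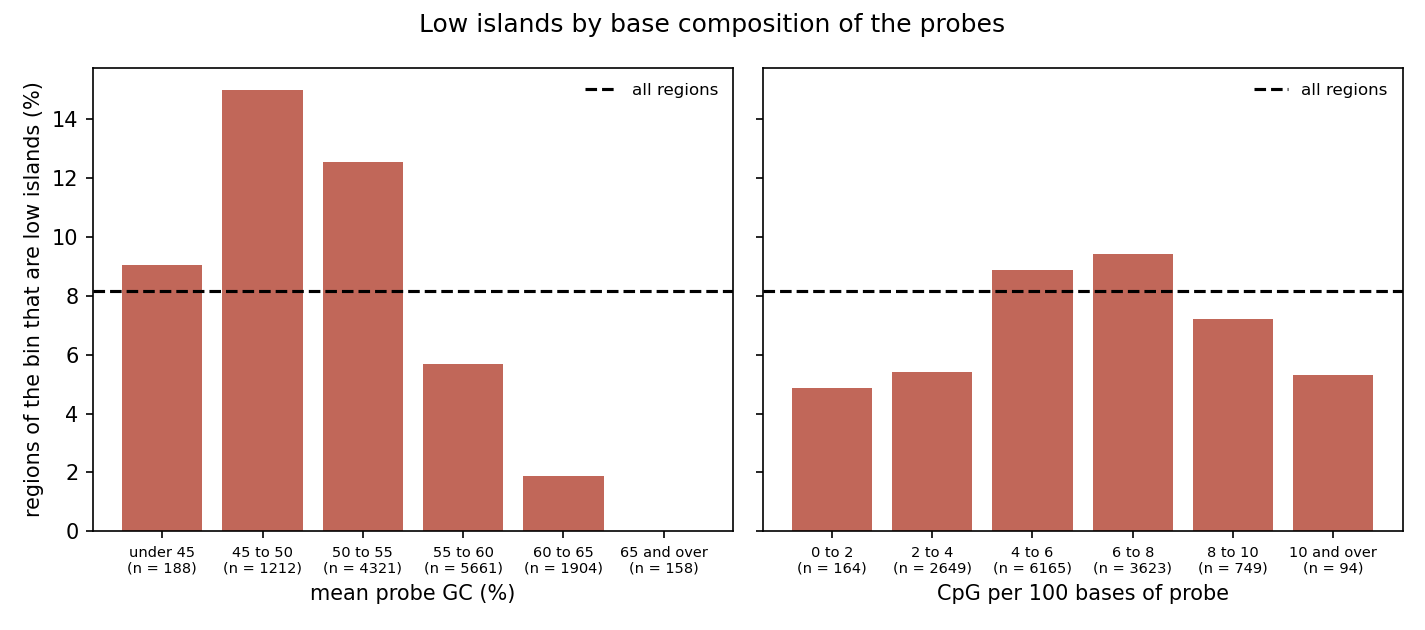
Share of regions that were low islands, in percent, by mean GC content of their probes (left) and by CpG per 100 bases of probe (right), with the number of regions in each bin and the share of all regions as a dashed line. The share is 15.02% at 45 to 50% GC and 1.89% at 60 to 65%.

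The promoters behind low islands had slightly more CpG for their base composition than those of other regions. Of 1030 gene names of low islands off chromosome 18, 832 (80.8%) had a promoter in the table, and of the other 9272 names 80.3%. The ratio of observed to expected CpG had a median of 0.827 for the low islands, 0.762 for promoters of other regions and 0.389 for all. The median CpG number in 300 bases was 23 in low islands against 22 in other regions.

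Genes with a low island also more often had a partner gene on the other strand. Of 813 coding genes, 132 (16.2%) had the start of another coding gene within 1000 bp in head-to-head orientation, against 7.56% of 7318 genes of other regions and 8.77% of all. Among regions with a probe in the promoter the shares were 18.4% of 700 genes and 8.35% of 5688. Among those without one the order was the other way, 2.59% of 116 genes and 4.42% of 2465. Dtl and Ints7, a ubiquitin ligase adaptor and an Integrator subunit, start 92 bp apart, Fbxl12 and Ubl5 36 bp, and Ccdc115 and Imp4 157 bp. With normexp the share was 11.5% against 8.16%, and in the deposited table it was 9.94% against 6.38%.

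Motifs were counted as exact letters on both strands of the 300 bases. The ETS core CCGGAAG was in 22.7% of 1043 promoters of low islands, 15.2% of promoters of other regions and 9.004% of all. TGACGT, the CREB site, was in 16.3%, 10.4% and 7.57%, and CCAAT, the NFY box, in 44.8%, 35.5% and 37.3%. Among the printed promoters Gm3417 has the ETS letters 3 times, Kif18a the CREB letters 3 times, and Mcm5 the CREB letters 2 times and CCAAT 3 times. The palindrome TGACGTCA counts once for each strand.

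Other motifs were about as frequent as in promoters of other regions. GGGCGG (SP1) was in 67.1% against 66.0%, GCATGCG (NRF1) in 6.90% against 6.48%, CACGTG (E-box) in 11.4% against 10.1% and AAGATGG (YY1) in 7.19% against 5.93%. The core promoter box TATAAA was in 5.75% against 6.63%, with 13.6% in all promoters. A match of letters is not a bound site.

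Which regions count as low islands depended on the processing. With normexp correction 404 of the 1099 (36.8%) were again low on at least 7 arrays. The probes with a deposited value on all 8 arrays covered 413 of the 1099 (37.6%) with 3 probes or more, against 67.2% of all regions. Of those 413, 216 (52.3%) were low there, against 7.74% of the regions it covers. The same probes with scanner values gave 234 (56.7%). Most of the loss thus came with the choice of probes and the regions they cover, and less with the deposited score. The gene expression and energy group stayed above all regions with normexp (11.8% against 6.55%) and in the deposited table (14.8% against 7.76%). The developmental group stayed below, with 3.61% and 5.01%. The mitochondrial ribosomal list had 10.0% with normexp and 4.00% in the deposited table, the second below all regions.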

How the data were processed

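DNA methylation was measured by mDIP on 8 Agilent CpG island arrays, 1 per group. Spot intensity values in the deposited scanner files are ones that Agilent Feature Extraction (10.7.3.1 for ES mbd4-/- and the Gadd45a knockdown, 10.9.1.1 for the other 6) had background-subtracted and dye-normalised linearly, per the file headers. They also hold its log10 ratio of Cy5 over Cy3, per the file headers, used to check direction only. The deposited value table is a score of unstated scale and centring, with column medians of −0.21 to −0.03. It correlated with the scanner log ratio at r = 0.900 to 0.970 over probes, and was used as an alternative.

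Of 94687 spots, 5950 are controls. The log2 ratio of the processed signals of bound over input was centred on each array's median over 85850 autosomal probes of 45 to 60 bases, with no loess or quantile step, and averaged over regions. Gene names are the array design's: 9518 of 10604 are current symbols and 1025 are synonyms in a RefSeq table (GRCm38.p6), used for names and neighbours, with promoter sequences of the same build matched to probes by their letters. Analyses used Python 3.11.15, pandas 2.3.3, numpy 2.4.6, scipy 1.17.1, and R 4.3.3 with limma 3.58.1 for normexp (offset 50). The code of the rule was checked on simulated arrays with independent probe noise. This says nothing about regions that are low for reasons the real arrays share. No comparison has a test, because no group has a replicate array and all arrays entered the rule. The number of arrays limits the precision. The same dye marked bound DNA on every array, so dye bias and enrichment cannot be told apart.

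Members and lists were chosen with earlier results of these data known. Genes were named as follows: the 12 lowest by mean percentile, the lowest of each list, the highest on each array and 3 on each side of the rule. Sequence on chromosome 18 is not reported here.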

Additional observations from a re-analysis of the deposited data

Results flagged for a closer look

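The median difference of aid-/- minus mbd4-/- over the 1099 low islands was 0.22 in ES cells and 0.37 in liver, but −0.046 in spleen. It was marked for the opposite sign in spleen, and the difference between the tissues was not tested. The medians behind it were −0.98 in aid-/- and −1.22 in mbd4-/- ES cells, −0.45 in aid-/- and −0.80 in mbd4-/- liver, and −0.73 in aid-/- and −0.68 in mbd4-/- spleen. The difference was above 0 for 732, 987 and 476 of the low islands in ES cells, liver and spleen. Over all regions the medians were −0.0036, 0.06 and −0.07. In each tissue the 2 arrays lay on different slides and were scanned on different days, and in ES cells they were read with different software versions. The mbd4-/- liver and spleen arrays shared a slide. Genotype cannot be told apart from slide, scan day or, in ES cells, software version. The arrays also differed in range. The 98th percentile of all regions was 2.23 in aid-/- against 4.03 in mbd4-/- liver, 2.25 against 3.64 in spleen and 4.36 against 4.33 in ES cells. In units of the SD of all regions on the array, the low-island median was −0.677 in aid-/- and −0.682 in mbd4-/- liver. It was −0.959 and −0.649 in spleen, and −0.759 and −0.902 in ES cells. On that scale the 2 liver medians were close.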

How the results depend on the processing

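Against 1099 low islands, the rule gave 692 with at least 5 probes, 717 for the lowest 20%, 503 on all 8 arrays, 1727 on at least 6, 691 in the deposited table and 2012 on bound signal alone, and 1177 to 1335 with 1 array left out. The GC difference (−2.42) turned to 0.64 with normexp and 1.32 in the deposited table, and the CpG difference (0.29) to −0.54 on bound signal alone. The share of probes with bound signal above background (70.0%) was 74.1% with the probe filter, 67.9% and 71.4% at the lowest 20% and 30%, 69.4% on all 8 arrays, 71.0% on at least 6, 72.3% with GC correction, 83.3% with normexp, 100% in the deposited table, 63.8% on bound signal alone, and 69.1% to 71.1% with 1 array left out. It was 70.4% with GC and CpG correction and 72.0% on 6 arrays of 1 software version, both chosen after seeing the data. The held-out share (median 90.8%) was 93.0% at 30%, 96.3% on bound signal alone and 92.6% with CpG correction, also chosen after seeing the data. The developmental share (3.79%) was 1.62% and 7.22% at 20% and 30%, 1.44% on all 8 arrays and 8.30% on at least 6 (all regions 5.33%, 11.1%, 3.74% and 12.8%). It was 16.4% on bound signal alone (all regions 14.97%) and 6.32% on the 6 arrays (all regions 11.7%). With 1 array left out it was 4.15% to 6.14% (all regions 8.75% to 9.93%). It was 6.14% without ES aid-/- (all regions 9.93%) and 5.96% without aid-/- spleen (all regions 9.24%). The gene expression and energy share (20.4%) was 13.1% and 25.6% at 20% and 30%, 9.05% on all 8 arrays and 28.6% on at least 6. It was 11.8% with normexp (all regions 6.55%) and 14.8% in the deposited table (7.76%). On bound signal alone it was 29.4% (all regions 14.97%) and on the 6 arrays 26.1% (11.7%). The head-to-head share (16.2%) was 19.3% on all 8 arrays, 11.5% with normexp, 9.94% in the deposited table and 12.9% on bound signal alone. Genes of other regions had 7.89%, 8.16%, 6.38% and 7.46% in the same order. At a difference of 1.5, low islands that differed between arrays numbered 16, 8 and 15 in ES aid-/-, mbd4-/- and the Gadd45a knockdown against ES wild type, 4 in liver and 0 in spleen, against 72, 52, 64, 40 and 6 at 1. Of all regions 3.102%, 3.12%, 4.83%, 5.40% and 2.22% differed by 1.5. The causes were not tested. Of 720 values of the 30 lists under 24 settings, 638 lay within the 95% interval of the list's share and 82 outside. Motif shares and the promoter split were not recomputed under the alternatives. Normexp used median signals in place of mean signals. No paired test was run, and each group has 1 array. The aid-/- and mbd4-/- arrays of ES cells, liver and spleen could be paired by tissue. They were not fitted as pairs, since the rule used all of them, and their differences are given as a description only.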

Other observations

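Of the 12345 other regions, 628 were low on 6 arrays and 5746 (42.7% of all 13444) on none. Regions without a gene symbol held 30 low islands of 672 (4.46%), with a median mean percentile of 60.6 against 48.6 for all regions.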
